A study of Mus musculus with 22 samples.

Results

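The comparison described here is that of E1-KO with WT: 6 of the 22 samples of the series, chosen by their genotype labels and sequenced as RNA, with 3 libraries per genotype. The cells were E14, an established line of mouse embryonic stem cells, grown in serum medium with LIF and 2i, the MEK inhibitor PD0325901 and the GSK inhibitor CHIR99021. LIF and 2i were then withdrawn and 2 µM retinoic acid was given for 1 day. Cells labelled WT were the reference genotype, and E1-KO cells lacked E1, 1 of the 2 HoxB enhancers (E1 and E2) that the series is about. The E2-KO and D-KO genotypes, with 3 libraries each under the same treatment, were used only where E1-KO was set beside them. The labels do not spell out D-KO, do not place E1 and E2 in the genome and do not say whether a genotype was 1 clone, and no row of the count tables stands for E1, so the deletion itself was not checked here. The replicates are called biological, with no word on separate cultures, so p-values measure only the spread between these samples.

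Retinoic acid enters the nucleus and binds RAR/RXR receptor pairs, which sit on DNA at repeats of a short half-site and switch from repressing to activating their targets. Among the first targets in embryonic stem cells are Hox genes, which encode homeodomain factors of anterior-posterior patterning, and the CYP26 enzymes, which break retinoic acid down. The HoxB genes lie in 1 run, with Hoxb1 at the end that responds first, and enhancers outside the genes act on several of them at a time. Stem cells that leave the naive state under retinoic acid also give rise to endoderm-like and neural-like cells.

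Promoter sequences are shown first, since the values below are those of the genes behind them. Binding of retinoic acid receptors to these sequences was not measured. Promoter windows of 250 bases before to 50 bases after each gene's start were taken from RefSeq (GRCm38.p6), and searched on both strands for DR5, a pair of receptor half-sites on the same strand with 5 bases between them. Each half-site was AGGTCA, its variant AGTTCA, the form GGGTCA or the form GGTTCA. DR5 was present in 32 of 32851 windows (0.0974%). Among the listed genes of the HoxB and HoxA clusters, the retinoic acid receptors, retinoid metabolism, other retinoic acid-induced genes and Hox partners, it was found for Rarb and Cyp26a1. Only genes with a window could be searched. These were 11 of 14 listed HoxA genes, 8 of 9 of the receptor list and 13 of 19 of retinoid metabolism. Of the other induced genes 14 of 23 had a window, and of the Hox partners 8 of 12. The 250 bases before each start are printed 5′ to 3′ on the gene's strand, with DR5 in capitals, for Cyp26a1 (chr19:37697558-37697807, plus strand) and Rarb (chr14:16575477-16575726, minus strand). Hoxb4 (chr11:96318017-96318266, plus strand) has the single half-site AGGTCA in capitals, read on the opposite strand, which 5340 windows (16.3%) hold. Hoxb1 (chr11:96365508-96365757, plus strand) has neither.
Cyp26a1: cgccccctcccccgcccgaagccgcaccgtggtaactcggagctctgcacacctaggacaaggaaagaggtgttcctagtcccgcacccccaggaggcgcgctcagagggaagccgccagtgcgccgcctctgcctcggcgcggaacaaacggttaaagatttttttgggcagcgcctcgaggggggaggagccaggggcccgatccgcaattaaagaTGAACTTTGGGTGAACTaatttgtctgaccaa
Rarb: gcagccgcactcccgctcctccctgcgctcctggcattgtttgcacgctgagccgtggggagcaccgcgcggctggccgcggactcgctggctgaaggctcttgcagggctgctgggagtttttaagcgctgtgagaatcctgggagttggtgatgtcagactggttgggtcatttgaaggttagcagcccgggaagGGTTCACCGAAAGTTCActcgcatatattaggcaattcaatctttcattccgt
Hoxb4: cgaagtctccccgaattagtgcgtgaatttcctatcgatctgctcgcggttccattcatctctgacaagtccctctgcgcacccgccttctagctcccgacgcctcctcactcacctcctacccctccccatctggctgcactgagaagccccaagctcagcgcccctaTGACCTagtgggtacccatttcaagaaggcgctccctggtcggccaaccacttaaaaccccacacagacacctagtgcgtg
Hoxb1: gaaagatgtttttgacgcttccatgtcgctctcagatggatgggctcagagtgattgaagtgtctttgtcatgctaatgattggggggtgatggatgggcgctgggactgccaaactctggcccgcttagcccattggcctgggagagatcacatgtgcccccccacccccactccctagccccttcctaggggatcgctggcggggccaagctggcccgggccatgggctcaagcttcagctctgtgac
DR5 of Cyp26a1 begins 32 bases before the start (37697776 to 37697792) and that of Rarb 53 bases before it (16575513 to 16575529). A match of letters is a description of the window only. Of the 10 HoxB protein genes, 3 had a window in the table (Hoxb1, Hoxb4 and Hoxb8), and none of these held DR5 or a repeat with 2 bases between the half-sites.

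The 6 libraries held 9507298 to 13007735 counted reads. The WT libraries lay far apart and the E1-KO libraries close together: the median tagwise dispersion was 0.053 within WT and 0.000791 within E1-KO. WT replicate 2 correlated with the E1-KO libraries (Spearman 0.964 across genes) more closely than with WT replicate 3 (0.953). Transcripts from mitochondrial DNA made up 3.50%, 1.94% and 5.88% of counts in the WT libraries in order of replicate and 1.36% to 1.48% in E1-KO. The rank correlation of a library's relative levels with GC content was -0.56, 0.14 and -0.43 in WT and 0.25 to 0.35 in E1-KO. The 3 libraries of each genotype did not overlap in either measure, the smallest p that an exact two-sided permutation test allows here is 0.1, and the part of these differences in the results below was not tested beyond the fits without GC trends and without WT libraries.

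Of 16014 genes tested with edgeR's quasi-likelihood test on the 6 libraries, 2552 (15.9%) had an adjusted p (Benjamini-Hochberg) below 0.05 and are referred to as called. Of these 1215 were higher in E1-KO (7.59%) and 1337 lower (8.35%), and 1611 differed by at least 1 on the log2 scale. Libraries of the 2 genotypes did not overlap for 41.7% of tested genes. The count was 6408 without WT replicate 2, 1314 without WT replicate 1, and 915, 968 and 961 without E1-KO replicates 1, 2 and 3. A fit with WT replicate 2 as the only WT library takes its spread from the 3 E1-KO libraries alone, so its calls do not reflect the spread of WT. Its fold changes are given below as medians of lists, and the median of all tested genes in this fit was 0.0057. A total of 796 genes (364 higher, 432 lower) were called in every one of the 6 fits that left out 1 library, and a gene is described below as stable where it was among them. All fold changes are log2(E1-KO over WT) ± standard error, all levels are CPM with TMM factors, and the median fold change of all tested genes was -0.0066. RNA from a whole culture was measured, so fewer cells of a kind and less RNA per cell cannot be told apart.

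The HoxB cluster lost most of its RNA in E1-KO. Of its 10 protein genes 9 fell, all of them stable, and Hoxb13 was not called. Hoxb1, the member that patterns the hindbrain and is switched on first, stood at 17.1, 31.3 and 20.04 CPM in WT replicates 1, 2 and 3 and 0.284, 0.186 and 0.402 CPM in E1-KO replicates 1, 2 and 3. Its lowest WT library lay more than an order of magnitude above the highest E1-KO library, and its fold change was -6.31 ± 0.50, adjusted p = 0.000124. Hoxb2, also a hindbrain gene, stood at 32.7, 37.00 and 13.9 CPM in WT and 1.23, 0.928 and 0.604 CPM in E1-KO (-4.91 ± 0.47, adjusted p = 0.000532). Hoxb3 had a total of 349 counts in WT and of 2 in E1-KO, both from replicate 1, a log2 ratio of totals of -7.43 with a 95% counting interval of -10.48 to -5.56. Left-out libraries move this ratio, to -6.70 and -6.75 without E1-KO replicates 2 and 3 and -6.79 without WT replicate 2, and without E1-KO replicate 1 no count is left. Its call was kept in each case (adjusted p = 0.00140 with all libraries).

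Hoxb4, which acts at the hindbrain-trunk boundary, stood at 31.4, 38.5 and 17.3 CPM in WT and 1.23, 2.04 and 1.01 CPM in E1-KO (-4.34 ± 0.39, adjusted p = 0.000486). For Hoxb5 the levels were 11.8, 13.6 and 8.89 CPM in WT and 0.0946, 0.278 and 0.805 CPM in E1-KO, and its fold change of -4.89 ± 0.56 became -5.93 without E1-KO replicate 3, the highest of the 3. Hoxb6 stood at 6.26, 12.5 and 4.27 CPM in WT and 0.379, 0.186 and 0.201 CPM in E1-KO (-4.92 ± 0.67, adjusted p = 0.00131). In each of these genes the genotypes did not overlap, and WT replicate 3 had the lowest WT level. Hoxb7 was at 4.52, 5.03 and 5.69 CPM in WT and 0.473, 1.11 and 0.302 CPM in E1-KO (-2.99 ± 0.46, adjusted p = 0.00353), and its fold change was -3.70 without E1-KO replicate 2. Hoxb8 stood at 18.6, 24.1 and 6.28 CPM in WT and 1.04, 0.371 and 0.704 CPM in E1-KO (-4.54 ± 0.61, adjusted p = 0.00167). Hoxb9, a trunk gene and the last of the main run, kept the largest share of its WT level among the 9, with 19.6, 15.8 and 10.7 CPM in WT and 4.54, 5.20 and 5.43 CPM in E1-KO (-1.60 ± 0.26, adjusted p = 0.00514). The plot of Hox and retinoid genes by library shows that, of these 9 genes, the gap between the lowest WT and the highest E1-KO library was narrowest for Hoxb9. Summed over the 10 genes, WT libraries held 153.6, 195 and 94.2 CPM and E1-KO libraries 10.8, 10.6 and 10.7.

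**Figure D1:**
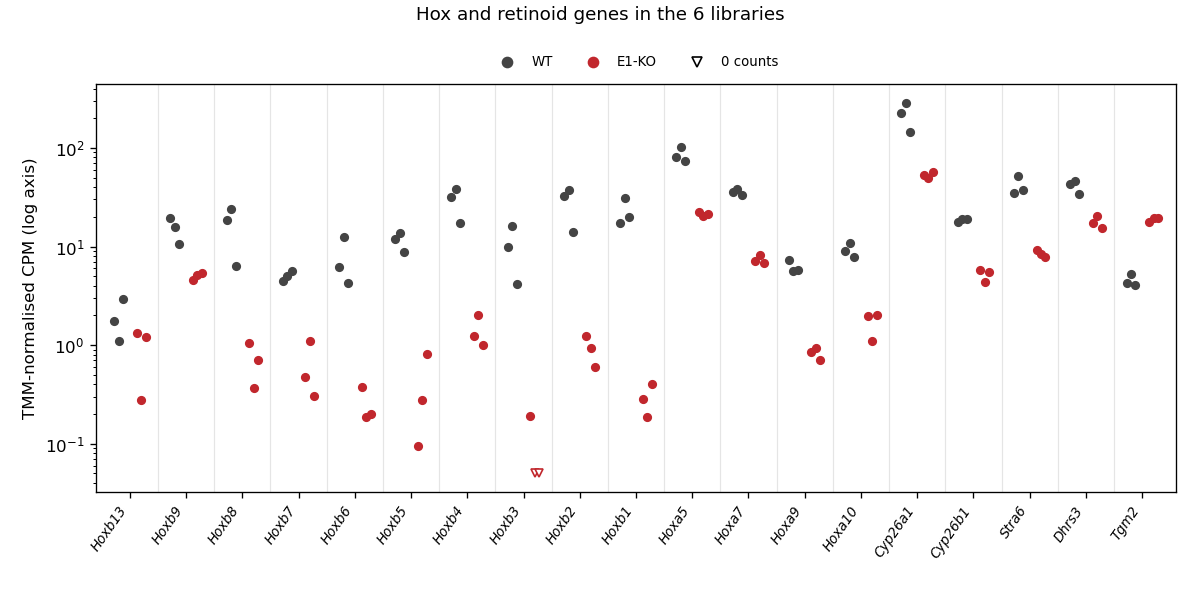
TMM-normalised CPM (log axis) of HoxB, HoxA and retinoid genes, 1 point per library, WT dark and E1-KO red; open triangles at the bottom mark libraries with 0 counts. The genotypes overlap for Hoxb13 and are apart for the other genes drawn, with Tgm2 higher and the rest lower in E1-KO.

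Along the chromosome, none of the next 3 tested genes beyond Hoxb9 (Mir196a-1, Gm53 and Hoxb13) passed the test. In GENCODE M21 (GRCm38) Hoxb1 spans chr11:96365752-96368256 and Hoxb9 chr11:96271457-96276595. Between Hoxb9 and Hoxb13 lie Mir196a-1, a microRNA gene, and the non-coding Gm53. Mir196a-1 stood at 1.54, 2.81 and 1.78 CPM in WT and 3.69, 2.69 and 3.42 CPM in E1-KO (0.66 ± 0.35, adjusted p = 0.219) and Gm53 at 18.6, 24.1 and 8.89 CPM in WT and 30.4, 28.2 and 28.9 CPM in E1-KO (0.76 ± 0.31, adjusted p = 0.124). Neither was called, and their estimates were above 0. Hoxb13 (chr11:96194316-96197447), far from the rest of the run, stood at 1.75, 1.11 and 2.96 CPM in WT and 1.32, 0.278 and 1.21 CPM in E1-KO, where the genotypes overlapped (-1.02 ± 0.60, adjusted p = 0.265). The antisense genes Hoxb3os (37.5, 43.1 and 17.1 CPM in WT and 1.32, 0.464 and 0.704 CPM in E1-KO; -5.29 ± 0.50, adjusted p = 0.000486) and Hoxb5os (4.21, 5.18 and 2.13 CPM in WT and 0, 0.371 and 0.101 CPM in E1-KO; -4.60 ± 0.89, or -4.01 without E1-KO replicate 1 and -6.31 without E1-KO replicate 2) fell. Both overlap HoxB exons on the opposite strand, and whether counting used strand is not stated, so their reads and those of the coding genes cannot be told apart. On the other flank Skap1, an adaptor protein gene beyond Hoxb1, fell too (-2.25 ± 0.62, adjusted p = 0.0340), a call that was kept without WT replicate 2 (adjusted p = 0.0111) and lost without any other library (0.0551 to 0.148). Of the 28 tested genes listed as neighbours of the cluster, 3 were higher and 3 lower in E1-KO, none of them stable, and their median was 0.09. These counts are near the shares of all tested genes, 7.59% higher and 8.35% lower.

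**Figure D2:**
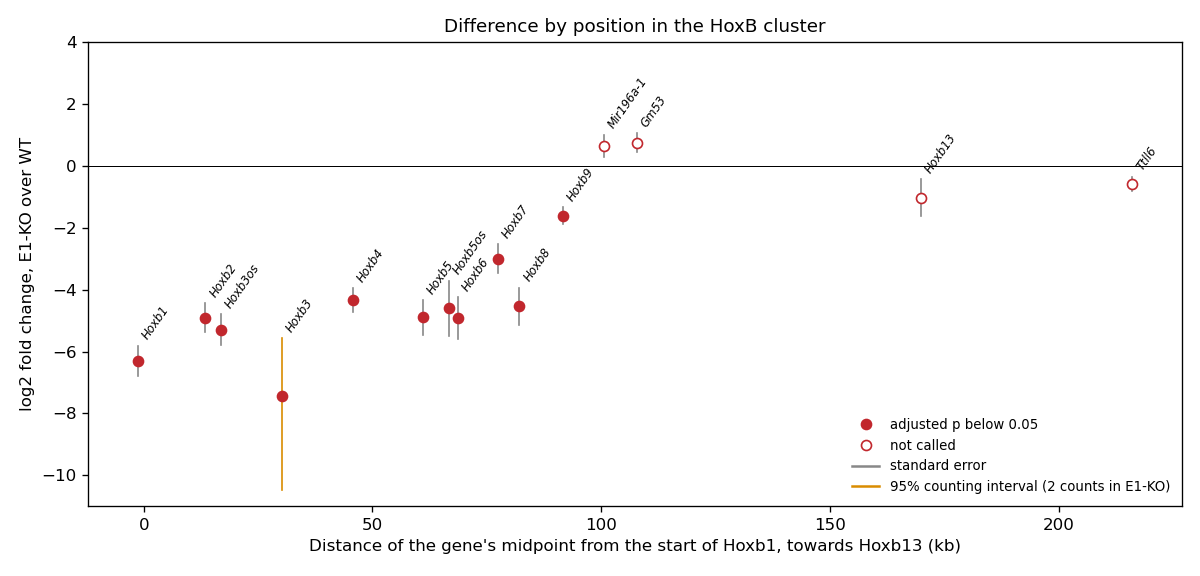
Log2 fold change of E1-KO over WT (vertical axis) against the distance of each gene's midpoint from the start of Hoxb1 towards Hoxb13 in kb; filled points are called, bars are standard errors, and for Hoxb3 the 95% counting interval. Genes from Hoxb1 to Hoxb8 lie between -7.43 and -2.99, Hoxb9 at -1.60, and the 2 non-coding genes beyond it above 0.

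Genes of the HoxA cluster on chromosome 6 were lower as well, at its middle and 5′ members. Of 10 tested (14 listed), 7 fell and none rose, with a median of -2.02. Hoxa5 stood at 81.01, 103 and 74.00 CPM in WT and 22.3, 20.6 and 21.1 CPM in E1-KO (-2.01 ± 0.17, adjusted p = 0.000411), Hoxa7 at 35.8, 37.9 and 33.3 CPM in WT and 7.10, 8.26 and 6.84 CPM in E1-KO (-2.27 ± 0.17, adjusted p = 0.000278) and Hoxa9 at 7.29, 5.62 and 5.81 CPM in WT and 0.852, 0.928 and 0.704 CPM in E1-KO (-2.91 ± 0.33). Hoxa4, Hoxa6 and Hoxa10 fell by 2.03, 2.57 and 2.44, and with the 3 just named they were stable. Hoxa3 fell by 1.12, a call lost without WT replicate 1 or any E1-KO replicate (adjusted p = 0.0526 to 0.0807). Hoxa2 and the non-coding Hotairm1 were not called.

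Hox proteins bind DNA with TALE homeodomain partners. Of 12 tested partners 4 fell, among them Meis1, Pbx3 and Meis2, and 1, Tgif1, rose by 0.71. The median of the list was 0.19, and 8.35% of all tested genes were lower and 7.59% higher. Meis1 was at 20.8, 21.6 and 12.5 CPM in WT and 6.15, 4.18 and 5.94 CPM in E1-KO (-1.76 ± 0.27, adjusted p = 0.00424), a stable call. Calls of Pbx3, Meis2 and Tgif1 were lost without E1-KO replicates 1 and 2 (adjusted p = 0.0686 to 0.136). With GC and length trends removed 2 partners were lower and 1 higher, with a median of -0.084.

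Retinoic acid receptors themselves were not called. Rara stood at 50.4, 79.04 and 32.1 CPM in WT and 48.4, 44.5 and 44.7 CPM in E1-KO (-0.23 ± 0.28, adjusted p = 0.587), and Rarg, the most counted of the 3 receptor genes in these libraries, at 218, 315 and 256 CPM in WT and 340.4, 323 and 352 CPM in E1-KO (0.37 ± 0.17, adjusted p = 0.167). Rarb, the DR5 gene printed above, was at 13.96, 16.2 and 20.3 CPM in WT and 12.6, 11.97 and 13.4 CPM in E1-KO. Its 3 E1-KO libraries lay below its WT libraries, by -0.40 ± 0.20, which did not pass (adjusted p = 0.188). Nrip1, a corepressor that binds ligand-bound receptors, was the 1 called gene of 8 tested, at 152, 112 and 221 CPM in WT and 52.3, 54.1 and 50.9 CPM in E1-KO (-1.62 ± 0.23, adjusted p = 0.00305).

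Genes of retinoid handling moved in 1 direction: 7 of 14 tested (19 listed) fell and none rose, with a median of -0.997. Cyp26a1, the second DR5 gene, stood at 228, 288 and 146 CPM in WT and 53.5, 49.4 and 56.8 CPM in E1-KO (-2.05 ± 0.23, adjusted p = 0.00133). Its WT levels spread from 146 to 288 and still lay above all E1-KO libraries. Cyp26b1, a second retinoic acid hydroxylase, was at 17.7, 19.2 and 19.09 CPM in WT and 5.77, 4.36 and 5.53 CPM in E1-KO (-1.83 ± 0.20, adjusted p = 0.00101), and Cyp26c1 fell by 1.32 with a call that was lost without any 1 E1-KO replicate (adjusted p = 0.0706 to 0.111). Stra6, the retinol uptake receptor, was at 34.8, 51.3 and 37.5 CPM in WT and 9.27, 8.35 and 7.75 CPM in E1-KO (-2.28 ± 0.20, adjusted p = 0.000513). Dhrs3, which reduces retinal back to retinol, was at 43.3, 45.7 and 34.03 CPM in WT and 17.5, 20.6 and 15.3 CPM in E1-KO (-1.20 ± 0.19, adjusted p = 0.00433). The retinoic acid-making Aldh1a2 was low in both genotypes, at 3.18, 4.14 and 3.08 CPM in WT and 0.284, 0.835 and 0.906 CPM in E1-KO (-2.37 ± 0.46). Crabp2, which carries retinoic acid to its receptors, stood at 13.96, 15.8 and 0.830 CPM in WT and 0.946, 0.557 and 1.31 CPM in E1-KO. WT replicate 3 lay at the level of E1-KO, so that the genotypes overlapped and the call (-3.47 ± 0.89, adjusted p = 0.0295) was lost without WT replicate 1 or any E1-KO replicate (0.0769 to 0.122).

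Among other genes that retinoic acid is known to raise, 8 of 19 tested fell and 3 rose (median -0.87). Pdgfra, a growth factor receptor of endoderm and mesoderm, stood at 25.6, 22.9 and 31.1 CPM in WT and 4.35, 4.46 and 3.52 CPM in E1-KO (-2.68 ± 0.21, adjusted p = 0.000318). Foxa1, a pioneer factor of endoderm, was at 8.83, 12.1 and 8.18 CPM in WT and 2.08, 1.39 and 2.52 CPM in E1-KO (-2.28 ± 0.30, adjusted p = 0.00208). Tgm2, transglutaminase 2, went the other way with 4.31, 5.25 and 4.03 CPM in WT and 17.9, 19.7 and 19.6 CPM in E1-KO (2.07 ± 0.20, adjusted p = 0.000646). Stra8, a germ cell gene that retinoic acid switches on, was at 323, 225 and 121 CPM in WT and 196, 188 and 200.3 CPM in E1-KO. Cdx1, a caudal factor with a known retinoic acid response, was at 39.02, 73.2 and 43.4 CPM in WT and 63.6, 62.1 and 59.8 CPM in E1-KO. Neither was called (Stra8 -0.19 ± 0.30, Cdx1 0.26 ± 0.23), and for both the genotypes overlapped. With WT replicate 2 as the only WT library, the median fold change was -1.03 for this list and -1.24 for the retinoid genes. Without any 1 E1-KO replicate each of the lists had 5 lower calls.

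**Figure D3:**
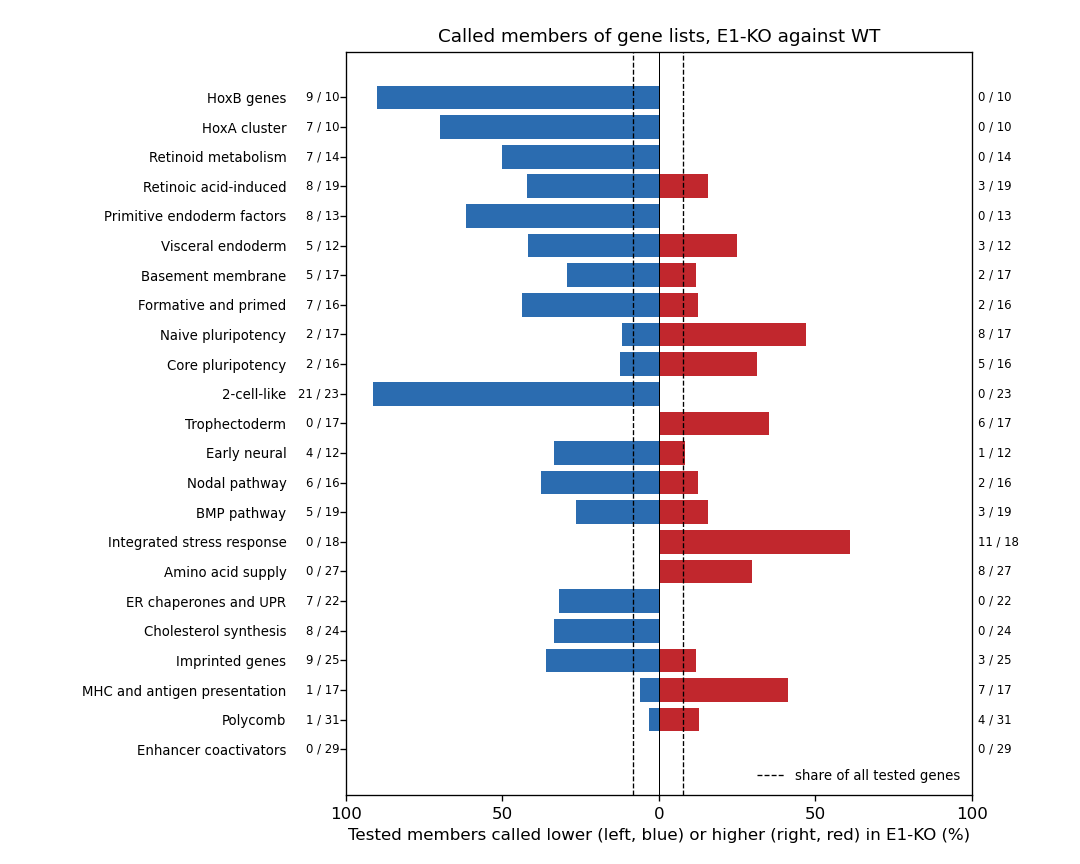
Share of tested members of gene lists called lower (blue, left) or higher (red, right) in E1-KO than in WT, with the counts at the sides; dashed lines mark the shares of all 16014 tested genes, 8.35% lower and 7.59% higher. HoxB and 2-cell-like genes have the largest lower shares drawn (9 of 10 and 21 of 23) and the integrated stress response the largest higher share (11 of 18).

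Transcription factors of primitive endoderm, the extraembryonic lineage that retinoic acid favours, fell in 8 of 13 cases with none higher (median -2.09), and all 8 calls were stable. Gata6, a factor that sets this lineage apart from epiblast, had 72.6, 69.6 and 69.1 CPM in WT and 16.1, 17.4 and 15.1 CPM in E1-KO, 2 narrow ranges far from each other (-2.12 ± 0.14, adjusted p = 0.000179). Gata4, its partner, stood at 15.2, 18.6 and 11.1 CPM in WT and 3.69, 3.71 and 3.82 CPM in E1-KO (-2.004 ± 0.25, adjusted p = 0.00159). Sox7 and Sox17, SRY-box factors of the lineage, were at 15.5, 12.7 and 12.8 CPM in WT and 2.93, 3.90 and 2.72 CPM in E1-KO (-2.09 ± 0.24) and at 5.03, 12.1 and 10.4 CPM in WT and 1.42, 1.02 and 1.41 CPM in E1-KO (-2.84 ± 0.39). Foxq1, a forkhead factor, was at 11.2, 17.6 and 8.42 CPM in WT and 0.946, 1.21 and 0.302 CPM in E1-KO (-3.91 ± 0.48, adjusted p = 0.00133). Foxa2, another forkhead factor, had 91 counts in WT and 3 in E1-KO and was called as well. Hnf4a, a later endoderm factor, was at 4.72, 4.37 and 4.03 CPM in WT and 3.97, 4.64 and 3.02 CPM in E1-KO, where the genotypes overlapped, and was not called; it lies in a stretch of chromosome 2 where gene levels were raised as a whole, as described at the end.

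Downstream genes of endoderm moved unevenly. Of 12 tested genes of visceral endoderm 5 fell and 3 rose. The endocytic receptor Cubn stood at 18.7, 15.02 and 25.02 CPM in WT and 0.757, 0.650 and 1.01 CPM in E1-KO (-4.60 ± 0.33, adjusted p = 0.000179), its co-receptor Lrp2 at 170.3, 158 and 361 CPM in WT and 65.3, 60.4 and 57.95 CPM in E1-KO (-1.90 ± 0.30) and the adaptor Dab2 at 17.97, 12.1 and 14.8 CPM in WT and 2.08, 1.67 and 3.52 CPM in E1-KO (-2.62 ± 0.31). These 3 work together in protein uptake, and each was lower in every E1-KO library than in any WT library. Amot, a junction protein that restrains YAP, was at 61.5, 45.9 and 58.1 CPM in WT and 5.68, 3.81 and 4.63 CPM in E1-KO (-3.55 ± 0.21, adjusted p = 0.000124). The lipid carrier Apom rose from 4.11, 3.996 and 2.85 CPM to 11.5, 11.3 and 13.6 (1.73 ± 0.23, adjusted p = 0.00223). Apoe and Soat2 also rose, with calls that were lost without WT replicate 1 (adjusted p = 0.0635 and 0.0636). Apob, a lipoprotein gene, fell, from 5.34, 5.62 and 17.9 CPM to 0.852, 1.30 and 1.51 (-2.96 ± 0.55). Of the 17 basement membrane genes 5 fell and 2 rose (median -0.13). Laminin chains Lama1 (99.1, 115 and 189 CPM in WT and 39.6, 34.1 and 42.2 CPM in E1-KO; -1.79 ± 0.24) and Lamb1 (96.2, 87.9 and 90.5 CPM in WT and 40.5, 40.5 and 42.3 CPM in E1-KO; -1.15 ± 0.13) fell, as did the collagen-modifying P4ha2 (-1.44 ± 0.17), while the type IV collagens Col4a1 and Col4a2 were not called. With GC and length trends removed the lower calls of this list numbered 8, and with WT replicate 2 alone its median was -0.37. Defining products of mature visceral endoderm were at or near 0: WT libraries together had 0 counts of Afp, 0 of Ttr and 1 of Apoa1, and E1-KO libraries 1 of each.

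Naive pluripotency factors were higher in E1-KO. Of 17 tested 8 rose and 2 fell (median 0.71). Esrrb, an orphan nuclear receptor of the naive network, stood at 289.6, 368 and 329 CPM in WT and 812, 789.8 and 819 CPM in E1-KO (1.30 ± 0.15, adjusted p = 0.00137). Klf4 was at 64.4, 94.1 and 76.96 CPM in WT and 182, 183 and 192 CPM in E1-KO (1.25 ± 0.17, adjusted p = 0.00217), Nr0b1 at 100.4, 130.0 and 117 CPM in WT and 239, 230.2 and 243 CPM in E1-KO (1.04 ± 0.15) and the epigenome regulator Prdm14 at 13.04, 11.8 and 16.1 CPM in WT and 31.04, 35.2 and 28.6 CPM in E1-KO (1.22 ± 0.19). In these 4 and in Tcl1 (0.97 ± 0.17) the genotypes were apart and the calls stable. Nanog stood at 677, 616 and 582 CPM in WT and 889, 926 and 921 CPM in E1-KO (0.55 ± 0.15, adjusted p = 0.0389), a call lost without any E1-KO replicate (adjusted p = 0.163 to 0.179), and it lies in the stretch of chromosome 6 where levels were lowered as a whole. Fgf4 and Nr5a2 were not called. Klf2 rose by 1.29 and lost its call without WT replicate 1 (adjusted p = 0.0693). With WT replicate 2 alone the median of the list was 0.58.

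Core pluripotency genes gave a mixed picture, with 5 higher and 2 lower of 16 (median -0.18). The sign of this median depended on the fit. It was -0.012 with GC and length trends removed and 0.15 with WT replicate 2 as the only WT library. Pou5f1, which encodes OCT4, stood at 796, 1144 and 417 CPM in WT and 1434, 1448 and 1479 CPM in E1-KO. WT replicate 3 was lowest, all E1-KO libraries were above WT, and the difference did not pass (0.89 ± 0.31, adjusted p = 0.0829). Sox2 rose (146, 194 and 87.3 CPM in WT and 324, 327 and 352 CPM in E1-KO; 1.23 ± 0.26, adjusted p = 0.0151), but lost the call without WT replicate 1 or any E1-KO replicate (0.0518 to 0.0737). With any 1 E1-KO replicate left out 1 of the list was higher. This was Foxd3, a forkhead repressor of stem cells and the 1 stable call, at 8.93, 20.6 and 6.76 CPM in WT and 88.2, 83.5 and 86.03 CPM in E1-KO (2.81 ± 0.34, adjusted p = 0.00168), with 3.44 without WT replicate 2. Lin28b and Gdf3 were the 2 that fell, and Gdf3 lies in a stretch of chromosome 6 where gene levels were lowered as a whole, as described at the end.

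Of 16 genes that mark the formative and primed epiblast 7 fell and 2 rose (median -0.49), 1 of the rises being Foxd3 again. Sox3, a SOXB1 factor of epiblast and neural plate, stood at 19.4, 46.3 and 13.3 CPM in WT and 3.41, 2.88 and 3.82 CPM in E1-KO (-2.97 ± 0.44, adjusted p = 0.00374), and its fold change was -2.29 without WT replicate 2, the highest library. Sall2 was at 30.9, 33.01 and 28.5 CPM in WT and 10.3, 10.95 and 7.95 CPM in E1-KO (-1.66 ± 0.19, adjusted p = 0.00122). Lef1, a Wnt effector, was low in all libraries, at 1.75, 1.26 and 2.02 CPM in WT and 0.189, 0.186 and 0.101 CPM in E1-KO (-3.37 ± 0.65). Fgf5 and the OCT6 gene Pou3f1 fell by 2.96 and 1.24, with calls lost without any 1 E1-KO replicate (adjusted p = 0.0642 to 0.0965). Otx2 was at 2.04 CPM or below in every library and was not called. Without E1-KO replicates 1, 2 and 3 the list had 3, 4 and 3 lower calls.

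The 2-cell-like state, a rare state of stem cell cultures that expresses genes of the cleaving embryo, was much reduced at the RNA level: 21 of 23 tested members fell (28 listed, median -3.03). Zscan4d, a marker of the state, stood at 85.02, 57.9 and 51.9 CPM in WT and 5.11, 2.88 and 3.52 CPM in E1-KO (-4.08 ± 0.27, adjusted p = 0.000200). WT replicate 1 was highest and the genotypes were far apart. The other 5 tested Zscan4 genes fell by 3.53 to 4.27 and the 5 Usp17l genes by 2.72 to 3.56. Copies within each family are almost the same in sequence, and how reads were divided between them is uncertain. Arg2, an arginase, was at 9.14, 7.77 and 4.15 CPM in WT and 1.04, 1.30 and 1.41 CPM in E1-KO (-2.50 ± 0.38). Pramel6 and Pramel7, which are also naive stem cell genes, were not called. Lower calls numbered 16 to 21 when 1 library was left out, and 16 genes were stable.

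Trophectoderm regulators and keratins rose in 6 of 17 cases with none lower (median 0.43), and 3 of the rises were stable. Krt8, a keratin of simple epithelia, stood at 24.6, 34.04 and 42.2 CPM in WT and 79.7, 73.5 and 72.1 CPM in E1-KO (1.17 ± 0.20, adjusted p = 0.00580). Tfap2c was at 7.50, 6.36 and 6.76 CPM in WT and 21.4, 19.03 and 21.5 CPM in E1-KO (1.59 ± 0.18, adjusted p = 0.00128), and it lies in the raised stretch of chromosome 2. Tead4, which sits in the lowered stretch of chromosome 6, was higher nevertheless, at 18.6, 21.02 and 19.8 CPM in WT and 47.4, 49.7 and 54.3 CPM in E1-KO (1.35 ± 0.15, adjusted p = 0.00103). With WT replicate 1 or any E1-KO replicate left out 3 of the list were higher, and with WT replicate 2 alone its median was 0.30. Removal of GC and length trends left 5 higher and 0 lower, and brought the median to 0.096. Defining trophoblast genes were low: Cdx2 stood at 0.924, 3.11 and 0.711 CPM in WT and 1.14, 0.371 and 1.01 CPM in E1-KO and was not called.

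Of 12 early neural genes 4 fell and 1 rose, with a median of -0.53. Sox11, a factor of committed neural precursors, stood at 14.4, 16.1 and 15.8 CPM in WT and 2.84, 2.78 and 2.62 CPM in E1-KO (-2.48 ± 0.21, adjusted p = 0.000377). The eye and forebrain factor Pax6 was at 4.62, 4.29 and 2.73 CPM in WT and 0.568, 0.0928 and 0.101 CPM in E1-KO (-3.93 ± 0.68, adjusted p = 0.00401), a fold change that is -5.33 without E1-KO replicate 1. Cdh2, N-cadherin, was at 9.65, 7.77 and 14.1 CPM in WT and 2.84, 2.13 and 2.52 CPM in E1-KO (-2.06 ± 0.30), and Zeb2, a repressor of E-cadherin from the list of epithelial-mesenchymal genes, at 4.005, 1.85 and 3.08 CPM in WT and 0.284, 0.464 and 0.201 CPM in E1-KO (-3.21 ± 0.57). The genotypes did not overlap in any of these 4. Fibroblast markers, listed for feeder cells, fell in 2 of 7 cases, Fbn1 by 2.21 and Loxl2 by 1.60, and none rose.

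Signalling genes were called in both directions, where 7.59% of all tested genes were higher and 8.35% lower. In the Nodal pathway 6 of 16 fell and 2 rose. The feedback inhibitor Lefty1 stood at 39.8, 77.4 and 43.3 CPM in WT and 5.49, 6.03 and 8.75 CPM in E1-KO (-2.99 ± 0.30, adjusted p = 0.000746). Skil, a Smad corepressor, was at 309, 254 and 476 CPM in WT and 79.7, 83.1 and 76.8 CPM in E1-KO (-2.11 ± 0.23). The type I receptor gene Acvr1b rose instead, from 37.7, 41.96 and 36.3 CPM to 89.5, 92.8 and 97.6 (1.28 ± 0.14, adjusted p = 0.000949). Of 19 BMP genes 5 fell and 3 rose. Id2, a target, was at 86.05, 57.8 and 39.7 CPM in WT and 8.42, 7.61 and 8.45 CPM in E1-KO (-2.90 ± 0.27, adjusted p = 0.000646), and Msx1, a homeobox target, at 9.55, 9.47 and 5.57 CPM in WT and 0, 0.278 and 0.201 CPM in E1-KO (-5.68 ± 0.75, adjusted p = 0.000729; -5.09 without E1-KO replicate 1 and -6.39 without E1-KO replicate 2). Bmp7, a ligand in the raised stretch of chromosome 2, rose (5.34, 4.74 and 3.44 CPM in WT and 10.3, 11.1 and 13.3 CPM in E1-KO; 1.36 ± 0.24).

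Of 25 Wnt pathway genes 4 fell and 3 rose, against 8.35% and 7.59% of all tested genes. The inhibitor Dkk1 was at 5.96, 6.73 and 5.69 CPM in WT and 1.04, 0.278 and 0.704 CPM in E1-KO (-3.19 ± 0.43), Sfrp5, another inhibitor, at 18.5, 28.9 and 14.2 CPM in WT and 6.91, 7.15 and 7.55 CPM in E1-KO (-1.51 ± 0.27), and Sp8, a zinc finger target, at 6.67, 7.18 and 6.05 CPM in WT and 0.662, 0.743 and 0.906 CPM in E1-KO (-3.11 ± 0.32, adjusted p = 0.000650). With Lef1 these were the 4 that fell, all stable. Fgfr2, an FGF receptor of extraembryonic lineages, fell (18.9, 19.2 and 18.1 CPM in WT and 5.49, 5.94 and 3.12 CPM in E1-KO; -1.94 ± 0.25). In the Hedgehog pathway the transcription factor genes Gli2 and Gli3 went opposite ways: Gli2 stood at 32.7, 41.1 and 37.6 CPM in WT and 94.7, 88.5 and 95.99 CPM in E1-KO (1.33 ± 0.14, adjusted p = 0.00102) and Gli3 at 24.7, 25.7 and 40.9 CPM in WT and 9.84, 10.02 and 10.5 CPM in E1-KO (-1.58 ± 0.23, adjusted p = 0.00304). Hes1, a Notch target, rose (16.7, 15.5 and 18.6 CPM in WT and 39.1, 36.2 and 37.8 CPM in E1-KO; 1.16 ± 0.16). Socs2, a feedback inhibitor in the LIF and STAT3 list, rose from 12.4, 9.77 and 15.3 CPM to 30.9, 29.8 and 30.3 (1.29 ± 0.20).

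The integrated stress response, which cells run through ATF4 when amino acids or protein folding fall short, had 11 of 18 genes higher and none lower (median 0.93). Trib3, a pseudokinase target of ATF4, stood at 28.03, 39.5 and 20.99 CPM in WT and 75.1, 76.8 and 79.2 CPM in E1-KO (1.38 ± 0.22, adjusted p = 0.00440). The stress cytokine Gdf15 was at 3.39, 7.47 and 2.13 CPM in WT and 25.6, 21.6 and 24.3 CPM in E1-KO (2.43 ± 0.38, adjusted p = 0.00424), with 3.09 without WT replicate 2, its highest WT library. These 2 calls were the stable ones. Higher calls of the list numbered 2, 2 and 3 without E1-KO replicates 1, 2 and 3 and 4 without WT replicate 1. Of 27 amino acid transporters, synthesis enzymes and tRNA synthetases 8 rose, among them Slc6a9 (9.65, 12.6 and 6.17 CPM in WT and 26.7, 26.4 and 26.96 CPM in E1-KO; 1.49 ± 0.25, adjusted p = 0.00573) and Slc1a4 (32.1, 36.1 and 35.3 CPM in WT and 71.6, 68.3 and 60.1 CPM in E1-KO; 0.95 ± 0.14, adjusted p = 0.00361). With WT replicate 2 alone the median of the 27 was 0.38, and without any 1 E1-KO replicate 3 were higher.

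ER chaperones and other unfolded protein response genes were lower in 7 of 22 cases (median -0.44), and genes of cholesterol synthesis and uptake in 8 of 24 (median -0.21), with none higher in either. Shares of all tested genes were 8.35% lower and 7.59% higher. Edem1, which sends misfolded proteins to degradation, was at 90.8, 87.1 and 94.7 CPM in WT and 47.9, 49.4 and 46.3 CPM in E1-KO (-0.92 ± 0.13, adjusted p = 0.00285). It was the only stable one of both lists and lies in the lowered stretch of chromosome 6. Without any 1 E1-KO replicate 1 ER gene and 0 cholesterol genes were called, and with WT replicate 2 alone the medians were -0.32 and -0.25. Of 12 genes encoded in mitochondrial DNA 8 fell (median -1.51). Their WT levels were spread like the mitochondrial share: mt-Nd1 stood at 7510.1, 3843 and 12683 CPM in WT and 2219, 2493 and 2361 CPM in E1-KO. The list had 1 to 2 lower calls without any 1 E1-KO replicate or WT replicate 1, and 5 with GC and length trends removed. Of 24 genes of glycolysis 5 fell and 2 rose, and 4 of these 7 calls were stable. The 2 rises are near the general share of higher genes, 7.59%. The median of the 24 genes was -0.245, and with WT replicate 2 alone it was -0.41. Slc16a3, a lactate exporter, fell (55.9, 101 and 57.3 CPM in WT and 19.7, 20.9 and 22.2 CPM in E1-KO; -1.76 ± 0.24, adjusted p = 0.00227), and Tpi1, an enzyme gene in the lowered stretch of chromosome 6, fell too (328, 404 and 301 CPM in WT and 138, 136 and 145 CPM in E1-KO; -1.30 ± 0.16). Ldhb, a lactate dehydrogenase gene in the same stretch, rose (112, 110.3 and 106 CPM in WT and 240.2, 223 and 229 CPM in E1-KO; 1.08 ± 0.14), as did the hexokinase gene Hk1 in the raised stretch of chromosome 10 (25.1, 29.2 and 24.7 CPM in WT and 55.1, 51.98 and 61.2 CPM in E1-KO; 1.09 ± 0.15).

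Imprinted genes, expressed from 1 parental copy, had 9 of 25 lower and 3 higher (median -0.64), where 8.35% of all tested genes were lower and 7.59% higher. With GC and length trends removed 7 of the list were lower and 5 higher, and the median was -0.11. Grb10, an adaptor that restrains growth, stood at 444, 407 and 444 CPM in WT and 33.4, 31.9 and 31.7 CPM in E1-KO, and its adjusted p of 2.57e-05 (-3.73 ± 0.14) was the smallest against WT of the genes named here. The cell cycle inhibitor Cdkn1c was at 135, 159.6 and 45.9 CPM in WT and 12.9, 13.2 and 12.9 CPM in E1-KO (-3.13 ± 0.39, adjusted p = 0.00193) and Mest at 206, 176 and 175 CPM in WT and 64.5, 68.1 and 70.6 CPM in E1-KO (-1.45 ± 0.14). The non-coding H19 went up, from 3.18, 2.29 and 0.119 CPM to 23.1, 24.3 and 24.7 (3.64 ± 0.54, adjusted p = 0.00361). Nespas, which rose (1.57 ± 0.19), lies in the raised stretch of chromosome 2. Of 17 genes of antigen presentation 7 rose and 1 fell, and the MHC class II chain H2-Eb1, at 1.54, 1.41 and 0.119 CPM in WT and 26.1, 29.9 and 25.9 CPM in E1-KO (4.67 ± 0.47, adjusted p = 0.000646), was the stable one. Among germline genes Zcwpw1, a reader of methylated histones in meiosis, rose (28.96, 21.2 and 26.3 CPM in WT and 81.7, 86.6 and 86.7 CPM in E1-KO; 1.74 ± 0.16, adjusted p = 0.000548) and Dazl, an RNA-binding protein of germ cells, fell (119.5, 71.5 and 112 CPM in WT and 28.4, 30.8 and 30.2 CPM in E1-KO; -1.76 ± 0.20, adjusted p = 0.00135).

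Genes for the machinery of enhancers and chromatin contacts were measured as well. Of 29 genes of enhancer coactivators 0 were called in the edgeR test, where 5 had an unadjusted p below 0.05, while DESeq2 and limma voom each called 1 higher and 2 lower. Their median was 0.0092. Of 19 chromatin loop genes, among them those of cohesin, 1 was lower. Of 31 Polycomb genes 4 were higher and 1 lower. Over all tested genes 7.59% were higher and 8.35% lower. With WT replicate 2 as the only WT library the median was 0.024 for the coactivator genes. It was 0.040 for the loop genes and 0.039 for the Polycomb genes, against -0.35 and -0.032 with all 3 WT libraries. The Polycomb gene Cbx6 was the stable call among the 3 lists, at 45.5, 63.8 and 44.1 CPM in WT and 91.9, 108 and 109 CPM in E1-KO (1.01 ± 0.18).

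Outside the lists, Cyp2b23, a cytochrome P450 gene, rose from 3.18, 3.26 and 2.13 CPM in WT to 58.9, 61.4 and 66.3 (4.43 ± 0.20, adjusted p = 4.50e-05). The EF-hand gene Efhc2 was at 0.513, 1.33 and 0.356 CPM in WT and 33.97, 33.4 and 38.2 CPM in E1-KO (5.48 ± 0.38, adjusted p = 0.000149; 6.31 without WT replicate 2). Slc13a5, the plasma membrane citrate transporter, was at 0.924, 0.518 and 1.66 CPM in WT and 12.6, 13.8 and 12.5 CPM in E1-KO (3.73 ± 0.37), and Loxl4, a lysyl oxidase-like enzyme, at 0.205, 0.370 and 0.119 CPM in WT and 6.81, 6.50 and 8.45 CPM in E1-KO (4.87 ± 0.49). All 4 calls were stable. In absolute CPM, the cell cycle factor Mybl2 was among the 10 called genes with the largest difference, at 479, 614 and 715 CPM in WT and 1324, 1293 and 1334 CPM in E1-KO (1.13 ± 0.18, adjusted p = 0.00456), and it lies in the raised stretch of chromosome 2.

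E1-KO was then set beside the other KO genotypes in a fit of the 9 KO libraries, whose spread is small. Of 16287 genes 3467 (21.3%) were called between E1-KO and E2-KO, 1664 higher (10.2%) and 1803 lower (11.1%), of which 294 differed by at least 1 on the log2 scale. Between E1-KO and D-KO 7898 (48.5%) were called, 4067 higher (25.0%) and 3831 lower (23.5%), 1249 by at least 1. With the WT libraries in the fit, which raises the shared spread, the counts were 100 and 2674. Both contrasts share the E1-KO libraries, so genes below are given side by side, and the number of fits in which each call held is out of 13 settings.

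Within HoxB, Hoxb4 lay at 4.39, 3.64 and 3.69 CPM in E2-KO and 0.101, 0.404 and 0.0972 CPM in D-KO. E1-KO, at 1.23, 2.04 and 1.01, was thus lower than E2-KO (log2 -1.43 ± 0.35, adjusted p = 0.00130) and higher than D-KO (2.86 ± 0.69, adjusted p = 4.34e-05). The first of these calls was lost in 1 of the 13 settings, the fit with all 12 libraries. Hoxb9 was at 3.74, 2.60 and 3.50 CPM in E2-KO and 1.51, 1.31 and 2.82 CPM in D-KO, not called against E2-KO (0.63 ± 0.26) and higher than D-KO (1.43 ± 0.28, adjusted p = 1.82e-05). Hoxb3, with 2 counts in E1-KO, had 44 in E2-KO (log2 ratio -4.54, counting interval -7.63 to -2.60) and 4 in D-KO (-1.05, interval -4.52 to 1.75). Hoxb2 was at 1.498, 1.77 and 2.84 CPM in E2-KO and 0.403, 0.606 and 0.389 CPM in D-KO, lower in E1-KO than in E2-KO (-1.14 ± 0.43, adjusted p = 0.0482), a call made in 4 of the 13 settings, and not called against D-KO (1.005 ± 0.56). Hoxb5, Hoxb6, Hoxb7, Hoxb8 and Hoxb1 did not pass the filter on low counts in this fit. In the alternatives that tested them, Hoxb7 was called higher in E1-KO than in D-KO in 7 of 7 (2.67 to 3.01) and Hoxb5 in 7 of 8.

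Several endoderm and retinoid genes were lower in E1-KO than in both other KO genotypes. Gata6 stood at 34.9, 38.1 and 36.5 CPM in E2-KO and 47.6, 44.9 and 45.7 CPM in D-KO, and E1-KO lay below both (log2 -1.16 ± 0.09, adjusted p = 2.26e-15 and -1.49 ± 0.09, adjusted p = 3.14e-21). Foxq1 was at 3.74, 4.68 and 4.17 CPM in E2-KO and 4.23, 3.53 and 5.15 CPM in D-KO (-2.33 ± 0.37 and -2.37 ± 0.36), and Cubn at 2.57, 4.16 and 3.69 and 7.15, 6.97 and 6.90 (-2.11 ± 0.35 and -3.12 ± 0.34). Pdgfra was at 11.3, 9.89 and 11.1 and 11.1, 16.5 and 13.03 (-1.37 ± 0.18 and -1.70 ± 0.18). For these 4 the order was E1-KO lowest and WT highest, with no overlap between E1-KO and either genotype, as for 35.2% and 55.1% of all tested genes. Stra6 was at 17.1, 16.97 and 18.2 CPM in E2-KO and 14.8, 18.3 and 18.4 CPM in D-KO (-1.03 ± 0.14 and -1.01 ± 0.14), and Cyp26a1 at 88.5, 84.4 and 74.3 and 95.7, 96.6 and 99.2 (-0.62 ± 0.07 and -0.86 ± 0.06). Lefty1 was at 15.6, 15.9 and 13.3 and 26.3, 32.3 and 28.6 (-1.14 ± 0.15 and -2.10 ± 0.14), and Sp8 at 2.67, 3.44 and 3.60 and 2.62, 3.33 and 3.99 (-2.07 ± 0.38 and -2.10 ± 0.38). The calls of Cyp26a1 and Lefty1 against E2-KO held in 12 of the 13 settings. By list, primitive endoderm factors were lower in E1-KO for 7 of 12 genes against E2-KO with none higher (median -0.82), and for 8 of 12 against D-KO with 1 higher (median -0.70). Retinoid handling genes were lower for 6 of 13 against E2-KO and for 7 against D-KO, where 3 were higher. Of all tested genes 11.1% were lower against E2-KO. Against D-KO 23.5% of all tested genes were lower and 25.0% higher, so the 3 higher retinoid genes are near the general share.

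H19, Efhc2 and Platr15 were higher in E1-KO than in each other genotype. H19 stood at 4.07, 3.44 and 1.99 CPM in E2-KO and 2.32, 3.74 and 2.92 CPM in D-KO against 23.1, 24.3 and 24.7 in E1-KO (log2 2.95 ± 0.19, adjusted p = 1.97e-20 and 3.02 ± 0.19, adjusted p = 7.10e-22). Efhc2 was at 6.10, 6.97 and 7.48 and 6.45, 6.66 and 8.65 CPM (2.37 ± 0.14 and 2.29 ± 0.13), and the non-coding Platr15 at 1.60, 1.98 and 2.46 and 1.01, 0.909 and 0.680 CPM against 5.96, 6.50 and 6.54 in E1-KO (1.66 ± 0.27 and 2.89 ± 0.34). Csn3, a casein gene, was lowest in E1-KO, with 2.46, 2.08 and 2.27 CPM in E2-KO and 4.13, 3.94 and 3.40 CPM in D-KO against 0.568, 0.371 and 0.201 (-2.56 ± 0.50 and -3.31 ± 0.49). Csmd3 had 0 counts in all WT and E1-KO libraries and stood at 18.9, 22.5 and 19.9 CPM in E2-KO and 39.1, 35.1 and 35.3 CPM in D-KO, at least 213-fold and 380.4-fold above the floor of 3 counts over the E1-KO group. The calls of H19, Efhc2, Platr15, Csn3, Foxq1, Cubn and Sp8 held in all 13 settings of both contrasts. Of 2-cell-like genes 1 of 20 (Pramel7) was called lower in E1-KO than in E2-KO, while 18 of 20 were lower in E1-KO than in D-KO. The shares of all tested genes called lower were 11.1% and 23.5%.

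**Figure D4:**
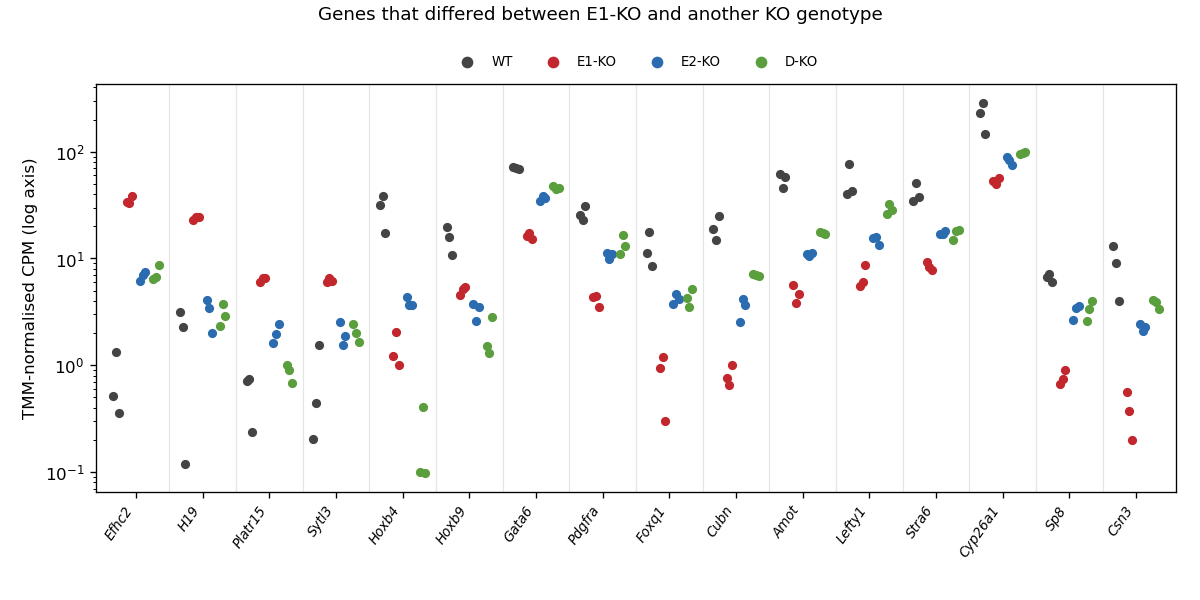
TMM-normalised CPM (log axis) of 16 genes in the 12 RNA-seq libraries, 1 point per library, coloured by genotype. Efhc2, H19, Platr15 and Sytl3 are highest in E1-KO; Gata6, Pdgfra, Foxq1, Cubn, Amot, Lefty1, Stra6, Cyp26a1, Sp8 and Csn3 are lowest in E1-KO, and Hoxb4 and Hoxb9 have their lowest means in D-KO.

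Gene levels also differed by chromosome region between E1-KO and WT. The genome was cut into 249 windows of 10 Mb with at least 10 genes, and the median difference of each was taken after removal of GC and length trends. In 9 windows it was 0.4 or more in size on the log2 scale, the largest among the other windows being 0.37. With these trends left in, 26 windows reached 0.4, of which 7 were among the 9 and 19 lay elsewhere (17 lower and 2 higher, from -0.62 to 0.48), while the 2 others of the 9 stood at -0.35 (chromosome 6 from 120 Mb) and 0.30 (chromosome 2 from 170 Mb). The 9 windows formed 3 stretches: chromosome 6 from 100 to 150 Mb, lower in E1-KO, chromosome 10 from 50 to 70 Mb, higher, and chromosome 2 from 160 to 180 Mb, higher. Relative to the WT mean, genes of the chromosome 6 stretch had median levels of -0.53 to -0.47 in the E1-KO libraries, those of chromosome 10 of 0.60 to 0.69, and those of chromosome 2 of 0.47 to 0.49, or -0.46 to -0.43, 0.57 to 0.59 and 0.62 to 0.65 with the trends left in. WT libraries, replicate 2 included, lay between -0.07 and 0.04 in all 3 with the trends removed. Since the stretches were chosen on this difference, these values describe it and carry no test.

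The libraries that the choice did not use showed it too. E2-KO libraries had medians of -0.54 to -0.53, 0.65 to 0.71 and 0.35 to 0.41 in the same stretches, and D-KO libraries of -0.56 to -0.53, 0.68 to 0.68 and 0.41 to 0.46. These values are relative to the same WT libraries. On chromosome 6, 264 of 330 tested genes had a fold change below 0 and 96 (29.1%) were called lower, against 8.40% of all genes with a single position. On chromosome 10 29 of 88 and on chromosome 2 74 of 187 were called higher, against 7.63% of all such genes. These counts are of E1-KO against WT, the difference by which the stretches were chosen. An excess was thus built in, and they carry no test. Together the stretches hold 215 of the 2552 called genes, and outside them 1106 were higher and 1231 lower. HoxB on chromosome 11 lies outside them, and so does HoxA, on chromosome 6 but near 52 Mb. Among the genes named above, Nanog, Gdf3, Tead4, Edem1, Tpi1 and Ldhb lie in the chromosome 6 stretch, Hk1 in that of chromosome 10, and Tfap2c, Bmp7, Nespas, Mybl2 and Hnf4a in that of chromosome 2. DNA copy number was not measured in these libraries, and its part in the shifts was not tested.

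**Figure D5:**
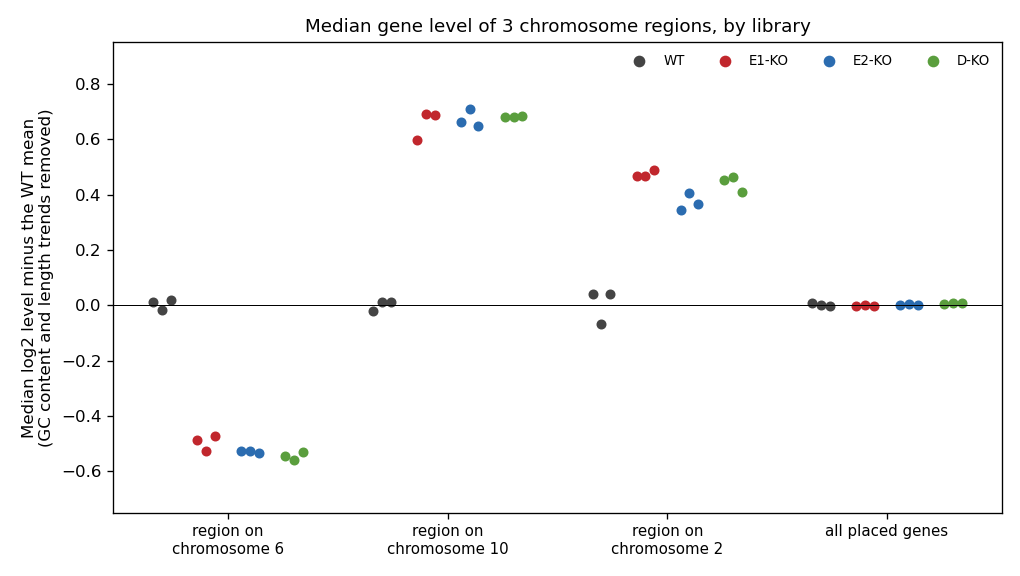
Median log2 level of the genes in each stretch minus the WT mean, after removal of trends with GC content and length, 1 point per library, coloured by genotype, with all placed genes at the right. WT libraries lie near 0, and the 9 KO libraries lie together below it on chromosome 6 and above it on chromosomes 10 and 2.

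Genes of the Y chromosome separated WT from E1-KO as well. Ddx3y, an RNA helicase gene, stood at 65.00, 41.9 and 56.3 CPM in WT and had 0 counts in every E1-KO library, at least 550.9-fold lower against the floor of 3 counts over the group. Eif2s3y, a translation factor gene, stood at 32.5, 17.4 and 29.5 CPM in WT and had 0 counts in E1-KO, at least 263.6-fold lower, and Uba1y likewise had none. Uty, a relative of histone demethylases, had 856 counts in WT and 1 in E1-KO. Of the 11 listed Y-linked genes 5 were tested, and all 5 were lower. The 6 E2-KO and D-KO libraries had 0 counts of Ddx3y, Eif2s3y and Uty.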

How the data were processed

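Total RNA had been isolated by Trizol extraction, per the labels' protocols. The deposited values are raw read counts per gene symbol for each library; the submitters' processing notes list HISAT2 2.1.0, HTSeq 0.9.1 and build mm10, while the sources used here name neither the annotation nor the strand setting. Each table holds 52535 symbols, of which 48108 matched GENCODE M21, used for positions, GC content and length (97.2% of tested genes). HTSeq's summary lines were left out; for each counted read 1.13 to 1.20 reads fell in no feature. Precision is that of 3 libraries per genotype with 9507298 to 13007735 counts, and intervals and floors (3 counts, 0.0947 CPM in WT and 0.0959 in E1-KO) cover counting error only.

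The 6 WT and E1-KO libraries were fitted with edgeR 4.0.16 (R 4.3.3): filterByExpr, TMM scaling, robust quasi-likelihood test, Benjamini-Hochberg adjustment over all 16014 genes, calls at adjusted p below 0.05, with no other genotype in the fit since the spread differs between genotypes. The 9 KO libraries were fitted the same way for E1-KO against E2-KO and D-KO. Fold changes are unshrunken. CPM values use TMM factors over 12 libraries. The scripts were tested on simulated counts. Alternatives were left-out libraries, the replicate block, other scalings and filters, GC and length trends removed, DESeq2 1.42.0 and limma 3.58.1 voom; the regional windows were added after seeing the data.

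Members and gene lists were chosen with earlier results of these data known. Genes were named by rule: all HoxB genes and non-coding HoxB genes with a count; of each other list up to 4 called genes of smallest adjusted p, or the most abundant where none was called; and, among called genes of average log2 CPM of at least 1 whose libraries did not overlap, the 12 largest rises, 12 largest falls and 10 largest CPM differences against WT and the 5 largest rises and 5 largest falls against each other KO, without predicted loci. The text names a part of these, and genes named beyond them (such as Rara, Pou5f1, Hoxa3, Crabp2, Apob and Pramel7) were chosen after their values were seen. Some genes of the lists are not reported here by name.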

Additional observations from a re-analysis of the deposited data

How the results depend on the processing

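The number of genes called between E1-KO and WT depends on which libraries enter the fit and on the fold required: 5739 (2633 higher, 3106 lower) with all 12 libraries in the fit, 6013 (3019 higher, 2994 lower) with WT replicate 2 as the only WT library, 1611 (761 and 850) with a log2 difference of at least 1 required, and 915 to 6408 (420 to 3104 higher, 495 to 3304 lower) with 1 library left out. The fits also differ in their number of libraries, and the cause was not tested. Other scalings, filters, tools and the removal of GC and length trends gave counts within 1.5 times of 2552. Against E2-KO the fit of all 12 libraries called 100 (54 higher, 46 lower) and leaving out 1 library 2633 to 3108 (1239 to 1605 higher, 1382 to 1658 lower). Against D-KO the values were 2674 (1260 and 1414) and 6960 to 7319 (3539 to 3741 higher, 3421 to 3578 lower). E1-KO minus WT was -3.28 to -1.31 percentage points for the mitochondrial share without 1 library, -4.01 to -1.55 points for the share of the 100 most abundant genes, 0.46 to 0.81 for the rank correlation with GC content and -0.28 to -0.084 for that with length. Same-numbered libraries did not deviate together (correlations -0.0597, -0.0845 and -0.0381), and with the replicate block 2763 genes were called against WT, 3492 against E2-KO and 7874 against D-KO. Of 195 named genes 120 were called against WT in every setting, and no value changed sign among called genes in the settings run.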

Other observations

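Genes of the cell surface and cytoskeleton that the report does not describe were called in both directions. Ctgf, a YAP target and matrix protein, stood at 89.6, 81.9 and 70.3 CPM in WT replicates 1, 2 and 3 and 26.5, 22.7 and 19.6 CPM in E1-KO (edgeR quasi-likelihood test, -1.81 ± 0.17, adjusted p = 0.000646), and Cnn2, an actin-binding calponin, at 12.4, 16.9 and 21.1 CPM in WT and 50.4, 48.6 and 48.2 CPM in E1-KO (1.56 ± 0.20, adjusted p = 0.00188). The 2 genotypes did not overlap for either gene. Cyr61, a relative of Ctgf, was higher in E1-KO (1.19 ± 0.27, adjusted p = 0.0199), a call lost without any 1 E1-KO replicate (adjusted p = 0.0619 to 0.0822). Of 19 tested cytoskeleton and YAP or SRF target genes 4 were higher and 3 lower, against 7.59% and 8.35% of all tested genes.

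Ocln, a tight junction protein, fell from 10.5, 8.44 and 9.61 CPM to 3.22, 3.25 and 2.52 CPM (-1.66 ± 0.24, adjusted p = 0.00305), and Cldn4, another, rose from 29.0, 47.7 and 25.7 CPM to 83.7, 79.4 and 83.4 CPM (1.27 ± 0.22, adjusted p = 0.00722), a call lost without WT replicate 1 (adjusted p = 0.0506). Among the epithelial-mesenchymal genes 5 of 19 fell and 1 rose. Primitive streak and mesoderm genes were called lower in 2 of 12 cases (Pdgfra and Nkx1-2) with none higher. Over all tested genes 8.35% were lower and 7.59% higher. The immediate early gene Egr4 had 2 counts in WT and stood at 3.79, 3.43 and 3.82 CPM in E1-KO, and its call was kept without any 1 library.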
